A study of Drosophila melanogaster with 8 samples.

Results

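Heat shock proteins and chaperones were followed in pupal retinas of a Drosophila melanogaster stock mutant for sevenless and of a control stock. The members are the rows of the deposited gene table whose symbol starts with Hsp, Hsc, DnaJ or CCT, or is l(2)efl, stv, Hsf or Droj2. This rule found 32 of 15127 rows, 16 of genes known to be induced by stress and 16 of constitutive genes, with Hsp83, Hsp60A and Hsf counted among the constitutive ones. No row had a symbol starting with CCT in capitals. The subunits of that chaperonin are written otherwise in the table, such as Cct5 and Cctgamma or under other names, and are given further on from a list. The inducible copy Hsp70Aa was not analysed here.

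RNA came from pooled retinas of female pupae aged 40 h after puparium formation, and polyadenylated transcripts were sequenced. The mutant stock carried the sev[14] allele of sevenless together with a w allele that the labels leave unspecified, and the control stock was w[1118]. There were 4 libraries of each genotype, written S1, S2, S4 and S5 for sev14 and W1, W2, W5 and W6 for control after the numbers in the deposited columns. Each genotype was 1 stock, so an effect of the sev allele and any other difference of the stocks cannot be told apart. Nothing in the labels ties the libraries of a genotype to separate animals or days. The p-values therefore reflect how far these libraries vary among themselves, and part of that may be technical.

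Chaperones bind unfolded or partly folded proteins and help them reach or regain their shape. Hsp70 and Hsp90 proteins do so in cycles of ATP binding and release that J-domain proteins and other co-chaperones steer, chaperonins enclose a client in a barrel, and small heat shock proteins hold clients without using ATP. Heat shock factor, Hsf, switches on the inducible genes within minutes of stress, while the Hsc70 genes are active in unstressed cells. In Drosophila several small heat shock genes clustered at cytological position 67B are also switched on by ecdysone during normal development, and the pupal retina differentiates under that hormone.

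Values are normalized counts, that is reads per gene divided by 1 factor per library. Differences are log2 differences of normalized count + 1, sev14 minus control, and a gene was called where its limma p-value, Benjamini-Hochberg adjusted over 10192 tested genes, was under 0.05. Recovered totals lay between 13755813 and 19317307 reads per library. Ribosomal RNA pseudogenes took 12.5% and 10.1% of the reads of libraries S2 and S5, and between 0.528% and 3.67% elsewhere. S4 stood apart among the members: it held the highest value in 11 of the 28 tested ones (39.3%), and in 16.4% of all tested genes. S2 held the lowest value in 8 of the 28 (28.6%, and 13.4% of all tested genes). The library counts were added after the values had been seen.

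Of the 32 members, 28 reached the mean of 5 normalized counts needed for the test, 2 rose and 0 fell in sev14 retinas. The calls were 7.14% of the tested members, and 4.21% of all tested genes were called, 2.38% as higher and 1.82% as lower. Both calls were copies of Hsp70, and another copy, Hsp70Bc, stood lower in every sev14 library without passing the test. edgeR and DESeq2 on recovered reads called the same number, 2 each, where 3.77% and 8.35% of all genes were called. At an unadjusted p under 0.05 there were 4 members, and 16.7% of all tested genes. The 4 members below the filter were Hsc70-2, Hsp60B, Hsp60C and Hsp60D.

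The Hsp70 copies encode near-identical inducible chaperones and lie in 2 clusters on chromosome arm 3R (build BDGP6). At 87A the table gives Hsp70Ab (FBgn0013276, 3R 11958535 to 11960909). At 87C it gives Hsp70Ba (FBgn0013277, 3R 12465453 to 12467776, minus strand) and, on the plus strand, Hsp70Bbb (FBgn0051354, 12502510 to 12504856), Hsp70Bb (FBgn0013278, 12505793 to 12508139) and Hsp70Bc (FBgn0013279, 12509076 to 12511461). Among the tools the submitters name is RSEM, which is known to divide reads that match several copies by estimation, but the role it had here is not given. Counts of single copies may therefore be rounded estimates and their division is uncertain, so their sum is given as well. The sequences of the copies in each stock were not analysed here. A difference at 1 copy therefore cannot be told apart from a difference in which copy the reads match.

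Hsp70Ba had 86.0, 85.8, 41.7 and 112 normalized counts in S1, S2, S4 and S5, and 0 in all 4 control libraries. Over a genotype this was 330 reads in sev14 and 0 in control libraries, a level at least 105-fold higher in sev14 against a floor of 3 reads over the genotype (limma adjusted p = 0.000241). This bound covers counting error only, not the division of reads among copies. The groups did not overlap, which held for 5.92% of all tested genes in this direction and 11.1% in either. Hsp70Ba passed the filter through the sev14 libraries alone. An absence of reads from every control library, with a sev14 mean of at least 20, was found for 11 of the 10192 tested genes, and the converse for 16.

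Hsp70Bbb had 568, 469, 187 and 192 normalized counts in S1, S2, S4 and S5, and 70.8, 154, 70.6 and 54.4 in W1, W2, W5 and W6. Every sev14 library was above every control library, with S1 and S2 the highest and W2 the highest of the control. The difference was 1.95 ± 0.44 (SE), with 354 ± 194 in sev14 and 87.4 ± 44.9 in control retinas (SD, n = 4 each; limma adjusted p = 0.0371). The call did not hold without S1 (adjusted p = 0.108), S2 (0.0823), W1 (0.0994), W5 (0.0940) or W6 (0.0911), or without S2 and S5 (0.111) or S4 and W6 (0.0660), while the difference stayed between 1.66 and 2.01 in these fits.

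Hsp70Bc had 169, 41.9, 204 and 74.4 normalized counts in S1, S2, S4 and S5, against 262, 265, 268 and 221 in W1, W2, W5 and W6. All sev14 libraries were below all control libraries, as in 5.18% of tested genes, and the sev14 values were spread more widely. The difference of -1.30 ± 0.44 (SE) missed the threshold (limma adjusted p = 0.154; unadjusted p = 0.0145). In the authors' deposited table its log2 fold change was -1.05 with an adjusted p of 0.0620, beside 8.75 (1.82e-20) for Hsp70Ba and 2.02 (1.92e-05) for Hsp70Bbb. These last were the 2 members that table called, and it called 6.78% of its genes.

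Hsp70Bb, which lies between Hsp70Bbb and Hsp70Bc, had 499.7, 349, 593 and 369 normalized counts in the sev14 and 473, 284, 277 and 211 in the control libraries, in the same library order. The ranges overlapped through W1, and the difference of 0.57 ± 0.26 (SE) did not pass (limma adjusted p = 0.317). Hsp70Ab, the copy at 87A, had 818, 571, 2883 and 552 in the sev14 and 1559, 1094, 781 and 710.2 in the control libraries. S4 was far above every other library, and the other sev14 libraries lay below or within the control range (-0.09 ± 0.49 SE, limma adjusted p = 0.962). With S4 the sev14 mean was higher, at 1206 against 1036 in control retinas, and edgeR gave 0.21 and DESeq2 0.22.

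**Figure D1:**
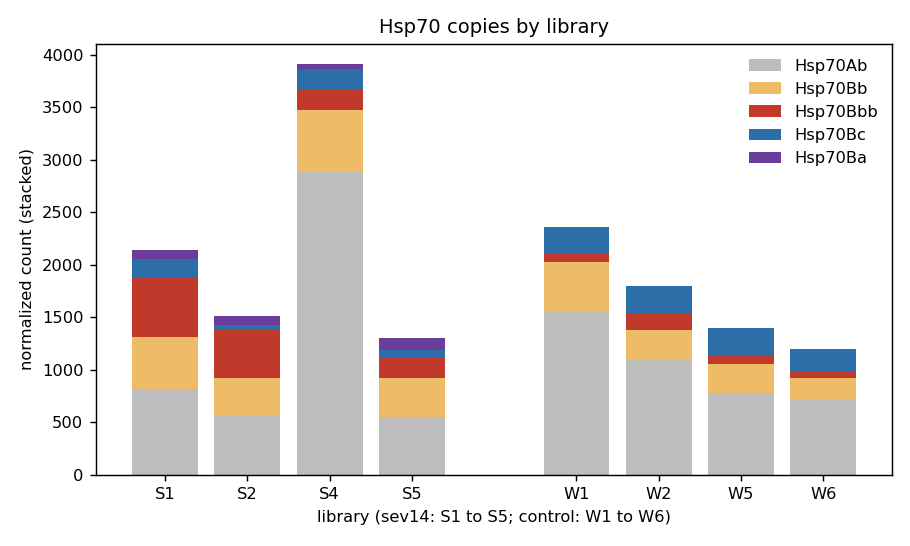
Normalized counts of the Hsp70 copies, stacked, in the sev14 libraries (left) and the control libraries (right). Hsp70Ba (purple) is present in the 4 sev14 libraries and absent from the control bars, Hsp70Bbb (red) is thicker on the left, Hsp70Bc (blue) is thicker on the right, and the tall S4 bar is mostly Hsp70Ab (grey).

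Summed over the 5 copies, the level was 2216 ± 1184 normalized counts in sev14 and 1689 ± 515 in control retinas (SD, n = 4 each), with ranges of 1299 to 3909 in sev14 and 1196 to 2365 in control. The higher sev14 mean rested on S4, without which it was 1652. Summed over the 87C copies it was 1010 ± 239 in sev14 and 653 ± 136 in control retinas, at 747 to 1323 in sev14 and 486 to 806 in control, with S5 alone of the sev14 libraries inside the control range. Hsp70Bc made up 4.43% to 19.9% of it in sev14 and 32.5% to 45.4% in control libraries. Hsp70Ba made up 4.06% to 14.9% in sev14 and 0% in control libraries. For Hsp70Bbb the shares were 18.2% to 49.6% in sev14 and 8.79% to 21.9% in control libraries, and Hsp70Bb held 36.9% to 57.8% in sev14 and 40.4% to 58.7% in control libraries. The shares of Hsp70Bc and Hsp70Ba did not overlap between the genotypes, and those of Hsp70Bbb and Hsp70Bb did. No test was made on the sums or shares, which were drawn up after the values had been seen.

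The genes beside the copies were examined in the same fit. Of the 3 nearest tested genes on each side of the 87A cluster, limma called 0 of 6 (0 at an unadjusted p under 0.05, 0 by edgeR, 0 by DESeq2). At 87C the same rule took CG5961, CG12267 and CG5608 on one side and Octbeta3R, Hug and Octbeta2R on the other. Among these CG5961 fell, to 177 ± 26.4 in sev14 against 501 ± 33.4 normalized counts in control retinas (-1.51, limma adjusted p = 0.000544). The noncoding alphagamma-element:CR32865, which lies between Hsp70Ba and Hsp70Bbb and is itself known as heat-inducible, stood at 536 ± 123 in sev14 and 517 ± 89.9 in control retinas (0.03, limma adjusted p = 0.967). Within 100 kb of the 87C cluster, a window chosen after values were seen, 5 of 38 tested genes other than the copies were called, where 4.21% of all tested genes were. GstD1 and GstD3, which encode glutathione transferases, fell by 1.26 and 0.78 on the log2 scale, lig3, a DNA ligase gene, fell by 1.06, and CG18549 rose by 1.68. GstD3 was not called without S2 and S5 (limma adjusted p = 0.0616). Within 100 kb of 87A it was 1 of 23, Ect3, which rose by 1.82.

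**Figure D2:**
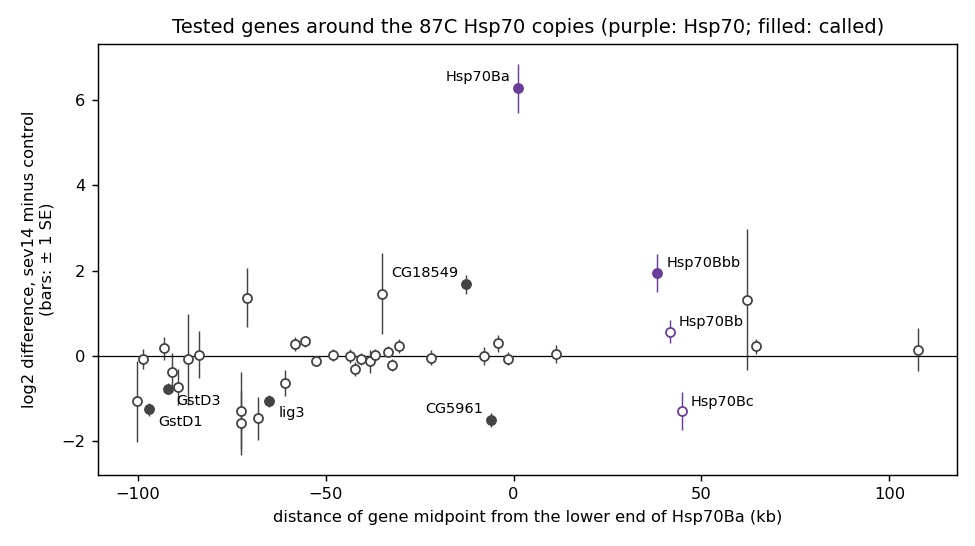
Log2 difference, sev14 minus control (y axis, bars ± 1 SE), of the tested genes around the 87C cluster against the distance of each gene's midpoint from the lower end of Hsp70Ba in kb (x axis). Hsp70 copies are purple and called genes are filled. Hsp70Ba, Hsp70Bbb, CG18549, CG5961, lig3, GstD1 and GstD3 are filled, in both directions, and most others lie near 0.

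Outside the Hsp70 copies, 23 members were tested and limma called none of them. At an unadjusted p under 0.05 there was 1, and edgeR and DESeq2 called 0 each. Of the 23, 22 had a log2 difference within 0.35 of 0, as did 64.15% of all tested genes, which were not matched to the members in level. The limit of 0.35 was chosen after the values had been seen. Among the tested genes nearest in level, the spread of the 23 within genotypes stood at a median percentile of 54.7. The median difference was -0.07 over the 16 inducible members and -0.10 over the 12 tested constitutive ones, against 0.0042 over all tested genes. These medians move with the scaling, since scaling by total reads shifted the median gene by -0.14.

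**Figure D3:**
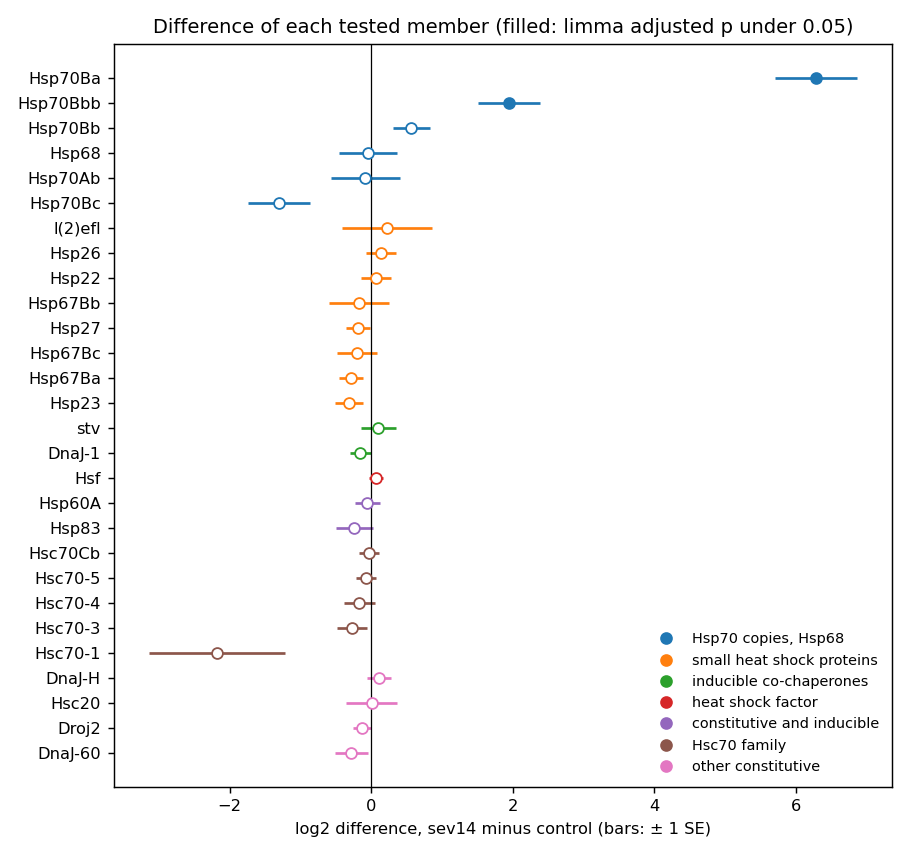
Log2 difference of each tested member, sev14 minus control, with bars of ± 1 SE, grouped by class and coloured as in the legend. Filled circles mark limma adjusted p under 0.05. Hsp70Ba at 6.28 (a fitted value against 0 reads, not a bound) and Hsp70Bbb at 1.95 are filled, Hsp70Bc and Hsc70-1 lie to the left, and the rest gather around 0.

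Hsf, the transcription factor that drives the heat shock response, had 2018, 1947, 2194 and 2136 normalized counts in S1, S2, S4 and S5, and 1858, 1936, 2013 and 2101 in W1, W2, W5 and W6. The ranges overlapped and the libraries lay close together (0.07 ± 0.10 SE, limma adjusted p = 0.814). Hsp68, an inducible relative of Hsp70 with a single gene at another site on 3R, averaged 189 ± 116 in sev14 and 180 ± 56.7 in control retinas. Its difference was -0.05 on the log2 scale of limma (adjusted p = 0.976), and 0.063 by edgeR and 0.073 by DESeq2, which go with the means. Its highest library was S4, at 356, as for Hsp70Ab.

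The small heat shock genes of 67B span 3L 9371511 to 9385694. Hsp23 had 8317, 7529, 8358 and 7881 normalized counts in S1, S2, S4 and S5, and 9545, 14849, 8748 and 7911 in W1, W2, W5 and W6. The control values were higher in W2 than elsewhere and W6 fell within the sev14 range (-0.31 ± 0.19 SE, limma adjusted p = 0.483). Hsp26 had 12827, 12032, 21619.7 and 10933 in the sev14 and 11769, 12588, 11975 and 13874 in the control libraries, with S4 alone above the control range (0.14 ± 0.21 SE, limma adjusted p = 0.821).

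Hsp27, whose product is found in the nucleus, had 10052, 8962, 14166 and 9140.0 in the sev14 and 11804, 12059.6, 12069 and 11513 in the control libraries. The control libraries were nearly level and the sev14 libraries lay on both sides of them (-0.19 ± 0.17 SE, limma adjusted p = 0.652). Hsp22, whose product enters mitochondria, had 11100.0, 8584, 12948 and 10339 in the sev14 and 9879.8, 14786, 7849.6 and 9139 in the control libraries, and the ranges overlapped (0.07 ± 0.21 SE, limma adjusted p = 0.927). Hsp22 shares 2034 bases on the same strand with Hsp67Bb, so their reads cannot be told apart with confidence.

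The other 67B genes gave no call either. Hsp67Ba averaged 5967 ± 1153 in sev14 and 7203 ± 896 in control retinas (-0.28), Hsp67Bb 54.0 ± 15.5 in sev14 and 67.4 ± 42.7 in control (-0.17), and Hsp67Bc 6116 ± 2725 in sev14 and 6710.0 ± 1643 in control (-0.20). Of the 1733 bases of exon of Hsp67Ba, 1375 lie under CR43481 on the opposite strand. The alpha-crystallin-like gene l(2)efl on 2R had 146, 60.7, 63.8 and 66.8 in the sev14 and 132, 167, 48.2 and 18.9 in the control libraries, the widest spread of the small heat shock genes (0.22 ± 0.63 SE, limma adjusted p = 0.925). Its mean was lower in sev14, at 84.4 against 91.4 in control retinas, and edgeR gave -0.14 and DESeq2 -0.12. This gene lies wholly under St3 on the other strand. The labels do not say whether reads were counted by strand, so values of such overlapping genes are uncertain.

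Co-chaperones among the members were close between the genotypes. DnaJ-1, the main inducible Hsp40 of the cytosol, had 1688, 1602, 1845 and 1259.5 in the sev14 and 1996, 1859, 1444 and 1792 in the control libraries, which overlapped (-0.15 ± 0.15 SE, limma adjusted p = 0.701). The BAG-domain gene stv, whose product promotes nucleotide release from Hsc70, had 1184, 1139, 2167 and 1638 in the sev14 and 1247, 1019, 1474 and 1931 in the control libraries, highest in S4 and W6 (0.10 ± 0.24 SE, limma adjusted p = 0.903). The J-domain genes Droj2, DnaJ-H, DnaJ-60 and Hsc20, the last a helper of iron-sulfur cluster assembly, had differences of -0.13, 0.11, -0.28 and 0.01. DnaJ-60 shares all its 1645 bases with CG42568 on the same strand.

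Of the constitutive chaperones, Hsc70-4, the main Hsp70 of the cytosol, had 26186, 23502, 38227 and 29228 normalized counts in the sev14 and 30582, 27653, 32416 and 39916 in the control libraries (-0.17 ± 0.21 SE, limma adjusted p = 0.786). Hsc70-3, the BiP of the endoplasmic reticulum, had 11113, 9789, 17328 and 14624 in the sev14 and 15958, 12842, 15583 and 18472 in the control libraries (-0.27 ± 0.21 SE, limma adjusted p = 0.591). For both genes S4 was the highest sev14 library and W6 the highest control library, and the ranges overlapped.

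Hsp83, the Drosophila Hsp90, had 7853, 7278, 15905 and 9738 in the sev14 and 12911, 11144, 8229 and 14487 in the control libraries (-0.24 ± 0.27 SE, limma adjusted p = 0.745). Hsp60A, the mitochondrial chaperonin (Hsp60 in the deposited symbols), had 4072, 3992, 6112 and 4905 in the sev14 and 4636, 3919, 5306 and 5845 in the control libraries (-0.05 ± 0.18 SE, limma adjusted p = 0.935). S4 and W6 were again the highest of their genotypes. The mitochondrial Hsc70-5 and the Hsp110-type exchange factor Hsc70Cb had differences of -0.07 and -0.03.

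Hsc70-1 was the constitutive member with the widest difference, at 19.3, 10.5, 11.4 and 0 normalized counts in the sev14 and 61.1, 18.1, 65.0 and 14.4 in the control libraries. It was low throughout, with 42 reads over the sev14 and 158 over the control libraries, and S1 lay within the control range (-2.17 ± 0.96 SE, limma adjusted p = 0.292; unadjusted p = 0.0477). The difference was -1.22 without S5, and -1.06 without S2 and S5. The members below the filter had 4 and 9 reads over the sev14 and control libraries for Hsc70-2, 6 and 0 for Hsp60B, and 4 and 6 for Hsp60C, while Hsp60D had 0 in both. Hsp60B and Hsp60C are known for roles in the testis.

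**Figure D4:**
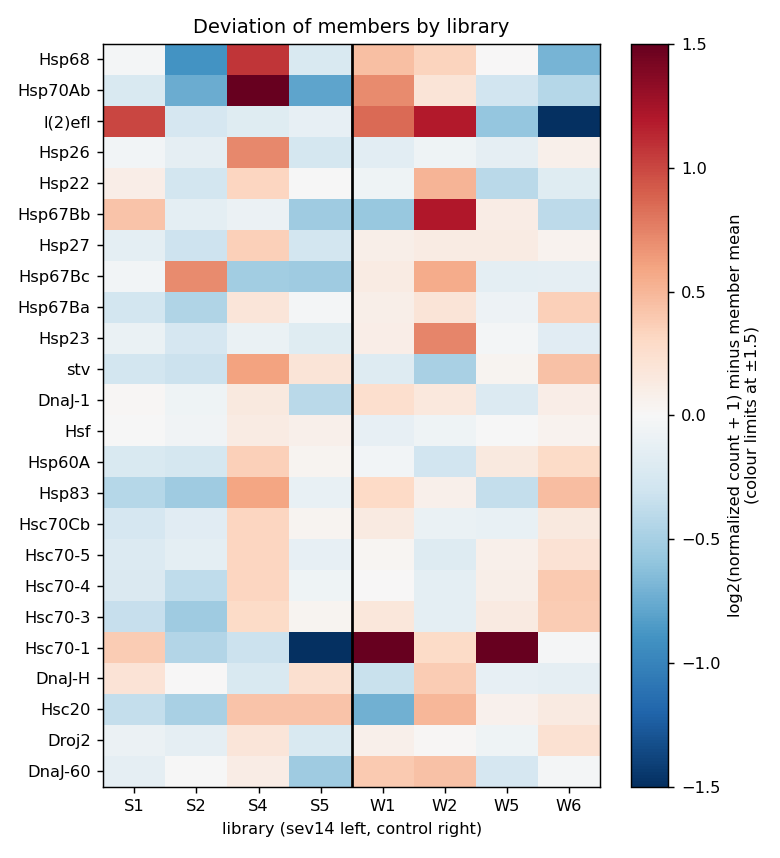
Deviation of log2(normalized count + 1) from each member's own mean over all libraries (colour, limits at ±1.5), with sev14 libraries left of the line and control libraries right of it. Hsp70 copies of 87C are left out. S4 is above the mean for most members, and W6 resembles it for Hsc70-3, Hsc70-4, Hsp83, Hsp60A and stv, so the columns differ among libraries of 1 genotype as well as between genotypes.

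Levels of different members were compared as RPKM, recovered reads scaled to annotated exon length and to the library's total. The totals include the reads of ribosomal RNA pseudogenes. Scaling by total reads shifted the median gene by -0.14 (sev14 minus control), so RPKM is read here across members and not between genotypes. Hsp26 led, at 851 ± 343 RPKM in sev14 and 810 ± 67.4 in control retinas, followed by Hsc70-4 at 642 ± 175 in sev14 and 783 ± 126 in control and Hsp23 at 537 ± 57.7 in sev14 and 758 ± 239 in control (SD, n = 4 each). The libraries of these 3 overlapped, so their order is within the spread. They stood at the 99.0, 98.9 and 98.8 percentiles of the 9987 tested genes with an exon length. Next came Hsp27, Hsp67Bc, Hsp22, Hsc70-3, Hsp67Ba and Hsp83, from 386 in sev14 and 473 in control retinas for Hsp27 to 206 in sev14 and 258 in control for Hsp83.

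Hsp60A stood at 114 ± 29.2 RPKM in sev14 and 129 ± 21.1 in control retinas and Droj2 at 102 ± 19.3 in sev14 and 123 ± 12.1 in control. Hsf was at 42.1 ± 4.26 in sev14 and 44.2 ± 2.18 in control retinas, while its normalized counts averaged 2074 in sev14 and 1977 in control. Among the inducible Hsp70 genes Hsp70Ab was the highest, at 31.1 ± 30.8 in sev14 and 28.5 ± 11.0 in control retinas, and Hsp70Ba was at 2.04 ± 0.658 in sev14 and 0 in control. Hsp67Bb was at 1.52 in sev14 and 2.08 in control retinas. The other inducible members of 67B were above every inducible Hsp70 copy in every library. CG4461, a small heat shock gene of 67B outside the rule, was at 0.218 in sev14 and 1.49 in control retinas.

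**Figure D5:**
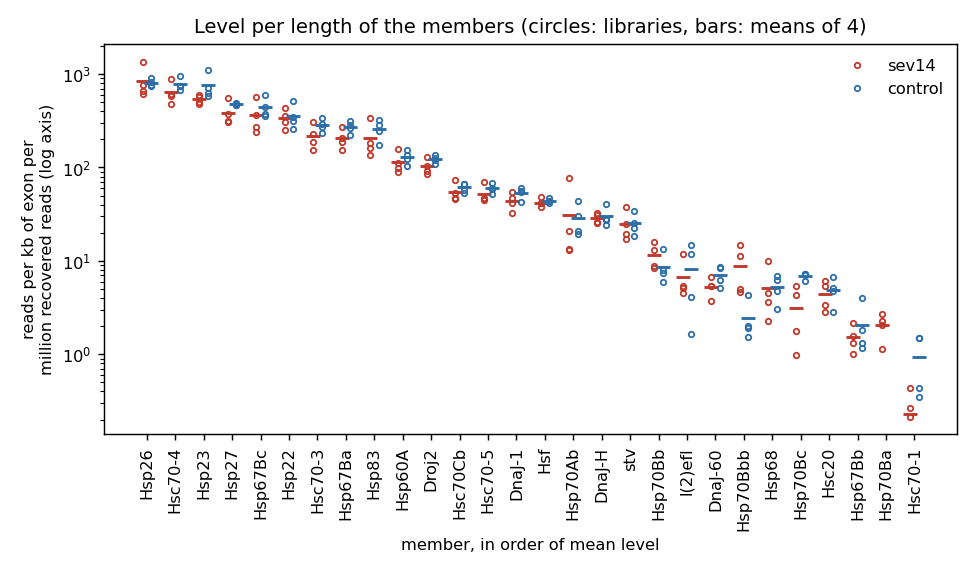
RPKM (log axis) of the members with a mean of at least 0.1, in order of mean level. Circles are libraries and bars the means of 4, with sev14 in red to the left of control in blue, and values of 0 are not drawn. Small heat shock genes and Hsc70-4 are at the left, and the Hsp70 copies of 87C lie towards the right.

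Chaperone genes outside the rule were taken from lists. Among 17 co-chaperones of Hsp70 and Hsp90, limma called 0 (1 at an unadjusted p under 0.05, 0 by edgeR, 0 by DESeq2). The largest differences were those of Hop, which links Hsp70 to Hsp90, at 1947 ± 406 in sev14 and 2451 ± 342 in control retinas (-0.34), and of CG1416, at 1265 ± 168 in sev14 and 1594 ± 183 in control (-0.33). Among 30 further J-domain genes 1 rose and 0 fell, where 4.21% of all tested genes were called. The gene that rose was mrj, a DNAJB6 relative, at 2074, 1935, 1916 and 1896 normalized counts in the sev14 and 1213, 1412, 1333 and 1445 in the control libraries. These did not overlap, as in 11.1% of all tested genes in either direction (0.54 ± 0.10 SE, limma adjusted p = 0.0181). The call for mrj did not hold with scaling by total reads (adjusted p = 0.106), without S1 (0.0582), W1 (0.0574) or W5 (0.0594), or without S2 and S5 (0.0764) or S4 and W6 (0.0575).

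Of the 8 subunits of the cytosolic chaperonin TRiC, which folds actin and tubulin, limma called 0 (1 at an unadjusted p under 0.05, 0 by edgeR, 1 by DESeq2). T-cp1, now CCT1, stood at 3459 ± 549.6 in sev14 and 4781 ± 295 in control retinas (-0.48, limma adjusted p = 0.0852, and 0.0171 in the authors' deposited table). Its libraries did not overlap between the genotypes, as in 11.1% of all tested genes in either direction. CG5525, now CCT4, was at 3843 ± 720.1 in sev14 and 3298 ± 539 in control retinas (0.22). None of 6 prefoldin genes, which pass nascent actin and tubulin to TRiC, was called by limma, edgeR or DESeq2, and 0 had an unadjusted p under 0.05. Of the 3 other small heat shock genes tested none was called by any of the tools, with 0 at an unadjusted p under 0.05. CG4461 was at 3.04 ± 3.53 in sev14 and 20.1 ± 20.4 in control retinas, and CG7409 at 10.0 ± 9.91 in sev14 and 18.2 ± 4.22 in control.

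Genes of the endoplasmic reticulum's chaperones and unfolded protein response gave 0 calls of 18 by limma, edgeR and DESeq2, with 0 at an unadjusted p under 0.05. Ero1L, an oxidase for disulfide formation, was at 845 ± 123 in sev14 and 669 ± 104 in control retinas (0.34), and Pdi, the disulfide isomerase, at 24054 ± 4728 in sev14 and 20189.9 ± 3289 in control (0.25). The 8 tested genes of mitochondrial proteostasis gave 0 calls by the same tools and 0 at an unadjusted p under 0.05. CG5045, the protease subunit ClpP, was at 909 ± 106 in sev14 and 775 ± 51.0 in control retinas (0.23), and Trap1, the mitochondrial Hsp90, at 556 ± 108 in sev14 and 629 ± 82.5 in control (-0.19).

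Of 18 other stress genes limma called 1 higher and 2 lower, where 4.21% of all tested genes were called. The libraries of the genotypes did not overlap in 11.1% of all tested genes. Of these 18, edgeR called 3 and DESeq2 5, and 6 had an unadjusted p under 0.05. Prx2540-2, a peroxiredoxin gene, fell to 70.0 ± 12.3 in sev14 against 236 ± 39.1 in control retinas (-1.74, limma adjusted p = 0.00171). MtnA, the metallothionein gene, fell to 563 ± 114 in sev14 against 2793 ± 1554 in control retinas (-2.17, limma adjusted p = 0.00569). Keap1, whose product holds back the oxidative stress factor cnc, rose to 364 ± 66.8 in sev14 against 199.8 ± 33.9 in control retinas (0.86, limma adjusted p = 0.0403). The Keap1 call held without S5 but not without any 1 other library (adjusted p 0.0592 to 0.125), nor with scaling by total reads (0.0832), without S2 and S5 (0.106) or without S4 and W6 (0.113). The DNA damage response gene Gadd45, at 147 ± 19.3 in sev14 and 52.0 ± 24.7 in control retinas (1.65, limma adjusted p = 0.0620), and MTF-1, the metal-responsive transcription factor, at 640 ± 59.6 in sev14 and 920 ± 176 in control (-0.51, limma adjusted p = 0.0987), were without overlap and not called by limma. The heat-inducible noncoding RNA Hsromega had 9359, 15560.5, 5401 and 14786 normalized counts in the sev14 and 5506, 6807, 8983 and 4655 in the control libraries, with S4 inside the control range (0.72 ± 0.34 SE, limma adjusted p = 0.316).

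The transcript of sev itself was at 274 ± 137 in sev14 and 298 ± 58.3 in control retinas (limma adjusted p = 0.804), and it neither checks nor contradicts the genotype labels. The retina markers gl, elav, chp, lz, ct, pros, sv and sev were above 0 in every library, ninaE was not analysed here, and Rh6 fell to 2.20 ± 1.51 in sev14 against 41.6 ± 12.6 in control retinas (limma adjusted p = 0.00754, and 0.0548 without S4 and W6). In whole tissue, fewer cells of a type and less RNA per cell cannot be told apart.

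Markers of other cells were present. Over all tested genes limma called 4.21%, edgeR 3.77% and DESeq2 8.35%, and 16.7% had an unadjusted p under 0.05. The libraries of the genotypes did not overlap in 11.1% of all tested genes. Of 6 tracheal markers tested limma called 1 higher, Gasp, edgeR 3 and DESeq2 4, and 5 had an unadjusted p under 0.05. All 6 had positive differences, and their summed level ran from 8985 to 17876 in sev14 and 2573 to 5085 in control libraries. Of 9 fat body markers tested limma called 1 higher, Lsp1alpha, edgeR 1 and DESeq2 3, and 4 had an unadjusted p under 0.05. Sums over the 10 matched fat body markers, tested or not, ran from 26114 to 76258 in sev14 and 18439 to 46153 in control libraries. The 7 glial markers differed in both directions, 3 up and 4 down. Among them limma called 2 lower, wrapper and Mdr65, edgeR called 2 and DESeq2 4, and 4 had an unadjusted p under 0.05. The glial nrv2, at 5797 ± 871 in sev14 and 3991 ± 331 in control retinas, stood higher without overlap and was not called by limma (0.53, limma adjusted p = 0.0686). The call for wrapper did not hold without W5 (limma adjusted p = 0.0512), S2 and S5 (0.0532) or S4 and W6 (0.0558). That for Mdr65 did not hold without any 1 library other than W2 (limma adjusted p 0.0582 to 0.117), with no filter (0.0544), without S2 and S5 (0.188) or without S4 and W6 (0.128). The glial sums, over 8 matched markers, ran from 21167 to 21832 in sev14 and 19913 to 25906 in control libraries.

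Among 7 haemocyte, 9 muscle, 10 optic lobe neuron and 1 male germline markers tested limma called none, with 1, 0, 0 and 1 at an unadjusted p under 0.05, 0 by edgeR in each, and 0, 1, 0 and 1 by DESeq2. Sums were taken over all matched markers, including those below the filter (8 haemocyte, 9 muscle, 10 optic lobe neuron and 9 male germline genes). They ran from 5252 to 12087 in sev14 and 6645 to 10718 in control for haemocytes, and from 6565 to 16496 in sev14 and 4079 to 41653 in control for muscle. For optic lobe neurons they ran from 5324 to 11225 in sev14 and 5303 to 10906 in control, and for the male germline from 16.2 to 35.6 in sev14 and 33.6 to 69.1 in control. The largest differences were those of eater in haemocytes (1.57), Act88F in muscle (-3.11), hbn in optic lobe neurons (-1.06) and betaTub85D in the male germline (-1.81), none of them called by limma. The part of these cells in the differences of Hsp70 copies was not tested.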

How the data were processed

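The deposited table holds 1 signal per gene and library, normalized counts that the authors made by dividing gene counts by 1 factor per library. Per the submitters' processing notes, the tools were HISAT2 2.0.3, RSEM 1.2.31, DESeq2 1.32.0, cutadapt 1.9.1 and FastQC 0.11.4, and the builds dm6 and BDGP6. The authors' deposited log2 fold change, score and adjusted p-value were used for comparison only.

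Dividing each library's values by that of 1 read gave whole reads, which may be rounded estimates: 99.98% to 100% of values above 0 came within 0.05 of a whole number. Columns were assigned to genotypes by their names, and the numbers in those names are not those of the sample titles. No pair of libraries of a genotype agreed within counting error (chi-square over degrees of freedom 47.0 to 427). All 32 members had the coordinates of the Ensembl BDGP6 annotation, which gave exon lengths.

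The test was that of limma 3.58.1 in R 4.3.3, 2-sided with a trend on intensity, over all 8 libraries and the genes whose normalized counts averaged at least 5. Values entered it as log2(normalized count + 1), and Benjamini-Hochberg adjusted p-values were called under 0.05. This scale can understate the change of low genes, or overstate it where a single library is at 0. For Hsc70-1, at 0 in S5, it gave -2.17, against -1.95 in the authors' deposited table. Alternatives were edgeR 4.0.16 and DESeq2 1.42.0 on recovered reads, other scalings, pseudocounts and filters, array weights, a block by column number, and leaving out libraries. The fit was also run on simulated counts with known changes. These were drawn independently for each gene and library, so they do not test the calls against shifts of a whole library. The floor of 3 reads covers counting error only. Python 3.11.15 read the table and drew the figures.

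Members, classes and lists were chosen with earlier results of these data known, and 1 entry was dropped from the J-domain list as misassigned after the table had been opened. Per-library values are given for called members, for those with a log2 difference of at least 1 and a higher mean of at least 20, for the Hsp70 copies, and for 12 others named for their roles. Of each list the text names the called genes, or the 1 or 2 of largest difference where none was called; Hsromega, Gadd45, MTF-1 and nrv2 were added after their values were seen.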

Additional observations from a re-analysis of the deposited data

Results flagged for a closer look

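Among the 28 tested members, 55 groups of 4 libraries were examined for a library far from the rest of its genotype, and 5 had one. The limit used flags about 1 in 20 groups of independent, normally distributed values. These groups share the same libraries, and the share over all tested genes was not computed. Hsp70Ab had 2883 normalized counts in S4, against 552 to 818 in the other sev14 libraries. Hsc70-5 had 3252 in S4, against 2258 to 2392 in the other sev14 libraries. The small heat shock gene l(2)efl had 146 in S1, against 60.7 to 66.8 in the other sev14 libraries. Hsp70Bbb had 154 in W2, while W1, W5 and W6 held 54.4 to 70.8. Hsp70Bc had 221 in W6, while W1, W2 and W5 held 262 to 268.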

How the results depend on the processing

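Hsp70Ba was called higher under all 21 alternatives run, and Hsp70Bbb under 14 of them. All of these fits used the same counts per copy, so none of them tests the division of reads among the copies. Hsp70Ba had 0 reads in the control libraries in each of them. Called members numbered 1 higher without S2 and S5 and 1 without S4 and W6, and 1 to 2 when single libraries were left out. Over all genes, DESeq2 called 503 higher and 344 lower, 145 were higher without S2 and S5, and 156 were higher and 106 lower without S4 and W6. Leaving out single libraries gave 137 to 251 higher (137 without S1) and 111 to 189 lower (120, 116, 111 and 113 without W1, W2, W5 and W6). Total-read scaling gave 177 higher and 268 lower, against 243 and 186. Matching prefixes without regard to case found 37 rows instead of 32. Of the added rows, Cct5 and Cctgamma are TRiC subunits, while Cct1 and Cct2, now Pcyt1 and Pcyt2, and HSPC300 share only the prefix.

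Column numbers shared by both genotypes (1, 2 and 5) did not pair the libraries: deviations of same-numbered libraries correlated at 0.087, 0.19 and 0.063, and not every library correlated best with its own number. With a replicate block by these numbers 197 genes were higher and 131 lower, and 1 member was lower, Hsp70Ab (-0.79, limma adjusted p = 0.0493), in a fit that leaves out S4 and W6, whose numbers are not shared. In that fit GstD3 (limma adjusted p = 0.0515), mrj (0.0873), Keap1 (0.132), Rh6 (0.0774) and Mdr65 (0.146) were not called.

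Directions that turned, 71 in all, were of differences not called in either fit. With total reads they were Hsp26 at -0.0012, Hsf at -0.074, DnaJ-H at -0.031, stv at -0.042, Hsp22 at -0.072, Hsc20 at -0.13 and alphagamma-element:CR32865 at -0.11. With edgeR they were Hsp70Ab at 0.21, l(2)efl at -0.14, Hsp68 at 0.063 and Hsc20 at -0.0044, and with DESeq2 Hsp70Ab at 0.22, l(2)efl at -0.12 and Hsp68 at 0.073. Array weights gave stv at -0.0025 and Hsc20 at -0.061. The block, and the fit without S4 and W6, both gave Hsp26 at -0.024, l(2)efl at -0.28, Hsp22 at -0.073 and Hsc20 at -0.087. Without S2 and S5 they were Hsp27 at 0.0089, DnaJ-1 at 0.0038, Hsp67Bb at 0.080, Hsc70-5 at 0.025, Hsp70Ab at 0.64, Hsp60A at 0.034, Hsp68 at 0.50, Hsc70Cb at 0.016, CG3281 at 0.076, Octbeta3R at -0.045, Octbeta2R at -0.47 and alphagamma-element:CR32865 at -0.17. Leaving out single libraries gave ranges of -0.073 to 0.25 for Hsp26, -0.39 to 0.20 for Hsp67Bb, -0.082 to 0.26 for stv, -0.63 to 0.16 for Hsp70Ab, -0.18 to 0.035 for Hsp60A, -0.38 to 0.65 for l(2)efl, -0.051 to 0.25 for Hsp22, -0.41 to 0.25 for Hsp68, -0.14 to 0.049 for Hsc70Cb and -0.23 to 0.18 for Hsc20. They were -0.33 to 0.013 for CG31211, -0.27 to 1.00 for aurA, -0.13 to 0.015 for CG5608, -0.15 to 0.69 for Octbeta2R and -0.050 to 0.22 for alphagamma-element:CR32865. The cause of these turns was not tested.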
